A study of Mus musculus with 16 samples.

Results

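Chemokines are small secreted proteins that guide leukocytes along gradients, and their receptors are seven-pass membrane proteins that couple to inhibitory G proteins. The genes described here are all those whose name on the array is Ccl, Cxcl, Ccr or Cxcr followed by a digit, together with Cx3cl1, Cx3cr1, Xcl1 and Xcr1. Cxcr2, once named Il8rb, is listed on the array as Cxcr2, and the platelet chemokines Ppbp and Pf4 were left out by the rule and are given only as related genes. The rule found 55 genes, 35 ligands and 20 receptors, among 28095 genes named on the array, and they were read by 71 probes on 80 spots. Where a gene had several probes, which was so for 16 members, the probe with the highest mean signal was used.

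RNA came from aortas of female C57BL/6 mice that lack ApoE, a lipoprotein ligand whose absence makes mice prone to atherosclerosis. All mice, the placebo groups included, had been ovariectomized at 4 to 5 weeks of age and ate a high-fat Western-type diet while a pellet under the skin released no hormone or 1 of 2 progestins, medroxyprogesterone acetate (MPA) and norethisterone acetate (NET-A). The pellets were made to release for 90 days, and the vessel between arch and renal branches was taken after 78 to 90 days. The 16 arrays fell into 4 groups of 4, with MPA, NET-A, and the groups called placebo M and placebo N here after the letters in the sample titles. Placebo M was set against MPA and placebo N against NET-A, since they share slides and an initial. MPA is derived from hydroxyprogesterone and NET-A from nortestosterone, and both are synthetic progestins. The labels give no dose, and they do not say whether numbered samples are different animals, so p-values here reflect only sample-to-sample spread, which may be technical.

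In the vessel wall, chemokines presented on heparan sulfate recruit monocytes, T cells and neutrophils from the blood. Ccl2 acting on Ccr2 and Cx3cl1 acting on Cx3cr1 are axes well known for bringing monocytes into atherosclerotic lesions. Cxcl12 acting on Cxcr4 holds progenitor cells and neutrophils in the marrow and is made by vessel wall cells. Cxcl1 and its relatives act on Cxcr2 of neutrophils, and Cxcl9 and Cxcl10 act on Cxcr3 of activated T cells.

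All levels below are log2 of the background-corrected Cy3 intensity relative to the 75th percentile of the array, so that 0 is that percentile and 1 unit is a doubling of the signal. A change is the difference of the mean log2 levels of progestin and placebo, given ± SE with 4 arrays a group, with the adjusted p of limma's test over all genes, and a ratio is its linear form. Values of single arrays stand in the order of replicates 1 to 4. Probes differ in brightness, so levels are compared between arrays for the same gene and never between genes. The arrays of the MPA experiment had 46.3% to 60.6% of spots well above background and those of the NET-A experiment 62.3% to 78.5%, with 31 to 38 and 33 to 46 of the 55 members detected per array. The experiments ran on separate slides and were read with separate software versions, so their levels stand side by side without a test. In the MPA experiment every MPA array lay in position 1 or 2 of its slide and every placebo array in position 3 or 4, so that position and group cannot be told apart there. Of the marker lists for the vessel itself, 7 of 7 smooth muscle and 8 of 8 endothelial genes were well above background on all 16 arrays. Apoe itself gave levels from -0.016 to 0.95 on all 16 arrays, and since its probe could sit in a stretch the deletion spares, this checks nothing.

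Of the 55 members, 27 were well above background on all 16 arrays and 6 on none, namely Ccr8, Cxcr1, Cxcl3, Cxcl11, Cxcl15 and Cxcl17. Testing required a signal well above background on 4 or more of an experiment's 8 arrays, which 38 members did for MPA (25 ligands and 13 receptors) and 43 for NET-A (27 and 16). All 38 were among the 43, and the 5 that were kept for NET-A alone were the mucosal ligand Ccl28, the neutrophil attractant Cxcl2 and the receptors Ccr1l1, Ccr4 and Ccr7. The 12 kept in neither were the 6 named above together with Ccl1, Ccl20, Ccl22, Xcl1, Ccr1 and Ccr10. Of these, Ccr1, a receptor of myeloid cells for Ccl3 and Ccl5, stood apart on 1 array: its level was 0.52 in placebo N replicate 2 and between -8.33 and -3.54 on the other 15 arrays, none of which was well above background. No kept member lacked a detected array in a whole group.

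No single chemokine or receptor passed the threshold in either comparison. By limma with Benjamini-Hochberg adjustment at 0.05, 0 of 15219 genes passed for MPA (0%) and 0 of 20912 for NET-A (0%), against 947 and 1294 genes at an unadjusted p under 0.05. The smallest adjusted p among members was 0.768 for MPA and 0.597 for NET-A. The values nevertheless lay mostly on one side. With MPA 30 of the 38 kept members had a lower mean than placebo (78.9%, against 50.5% of all genes tested), with a median change of -0.35 against -0.0028 for all genes. With NET-A it was 35 of 43 (81.4%, against 55.1%), with a median of -0.43 against -0.026. With normexp background correction the MPA median was -0.12 with 24 of 38 lower. In that fit 11 of 38 members had an unadjusted p under 0.05, 5 lower and 6 higher. So did 4227 of all 15219 genes, so these member counts do not stand out from the background. With normexp the receptors alone gave 0.34 with 4 of 13 lower, where the reported fit gave -0.30 with 8 of 13. With array weights the NET-A median was -0.23 with 30 of 43 lower. These counts are descriptions of a list chosen with earlier results known and carry no test.

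At an unadjusted p under 0.05, 13 of 43 members were lower with NET-A (30.2%), where 3.72% of all genes were, and 0 were higher, where 2.47% of all genes were. Cxcl2 and Cxcl5, both among the 13, were well above background on more placebo N arrays than NET-A arrays. With MPA 4 of 38 were lower (10.5%, background 2.5%) and 1 was higher (2.63%, background 3.73%). The arrays of NET-A lay below all arrays of placebo N for 7 of 43 members (16.3%, background 2.36%), among them Ccl2, Ccl8, Ccl19, Cxcl1, Ccr2 and Cxcr6, and above them for 0 (background 1.54%). The MPA and placebo M arrays overlapped for all 38 members, where 1.37% of all genes were separated downward and 2.63% upward. Lower means in both experiments were found for 27 of the 38 members kept in both (71.1%, against 26.6% of 15089 genes), higher means in both for Ccl24 and Ccr6, and opposite signs for 9.

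**Figure D1:**
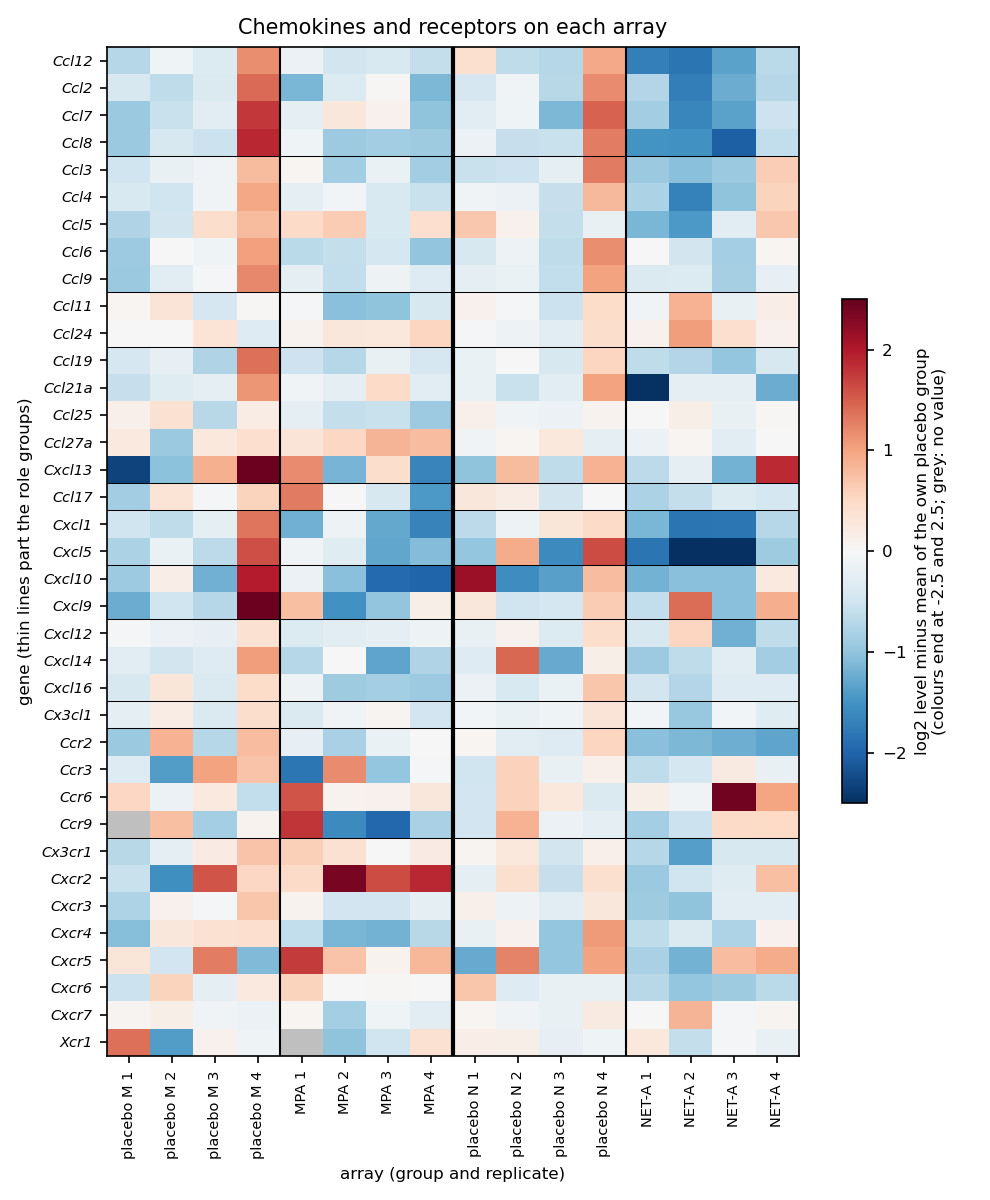
Heat map of members kept in both experiments on each of the 16 arrays, with genes in rows grouped by role and arrays in columns. Colour is the log2 level minus the mean of the own placebo group, and grey marks the missing value of Ccr9 on placebo M replicate 1 and of Xcr1 on MPA replicate 1. Placebo M replicate 4 and placebo N replicate 4 stand out in red over many rows.

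Single placebo arrays carried much of this pattern. Placebo M replicate 4 had the highest level of the 4 placebo arrays for 26 of 37 members with all values (70.3%), against 26.9% of all genes. Placebo N replicate 4 was highest in its group for 25 of 43 members (58.1%, against 22.8%), and among treated arrays NET-A replicate 4 was so for 22 of 43 (51.2%, against 17.5%) and MPA replicate 1 for 19 of 37 (51.4%, against 39.4%). Placebo M replicate 1 was lowest for 18 of 37 (48.6%, against 27%) and placebo N replicate 3 for 26 of 43 (60.5%, against 26.1%). Without placebo M replicate 4 the median change with MPA was -0.057, with 23 of 38 members lower, 0 of them at an unadjusted p under 0.05. Without placebo N replicate 4 the median with NET-A was -0.23, with 31 of 43 lower and 10 lower at an unadjusted p under 0.05, all 10 of which were among the 13. In that fit 1154 of 20912 genes were at that level in either direction. Without placebo M replicate 1 the MPA median was -0.54, and without placebo N replicate 3 the NET-A median was -0.64. Fits that left out each array in turn gave 0 to 6 members lower at that level for MPA, with 0 also without MPA replicate 3, 1 without placebo M replicate 2 and 2 without MPA replicate 2 or 4, and 10 to 15 for NET-A. The number of all genes at that level, in either direction, moved too. It ran from 669 (without MPA replicate 3) to 1299 (without MPA replicate 1) of 15219 for MPA. For NET-A it ran from 985 to 1667 of 20912. Lower genes alone were not counted in these fits.

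The slides of the MPA experiment also differed. Within slide 1, which held replicates 1 and 2 of both groups, 17 of 38 members were lower (44.7%, against 53.7% of all genes) with a median of 0.12, and within slide 2, which held replicates 3 and 4, 32 were lower (84.2%, against 44% of all genes) with a median of -0.82. In the NET-A experiment 35 of 43 were lower on slide 3 (81.4%, against 46.3% of all genes, median -0.44) and 34 on slide 4 (79.1%, against 52.6%, median -0.55), each with 1 array a group. On slide 5, with 2 arrays a group, 29 were lower (67.4%, against 58.4%, median -0.28), a share nearer to its background.

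Markers of other cell types moved beside these genes, and their part in the results was not tested. All 12 of 12 macrophage genes had lower means in both experiments, with medians of -0.55 for MPA and -0.54 for NET-A, and each was well above background on all 16 arrays. Without placebo N replicate 4 the NET-A median of these genes was -0.29 with 10 of 12 lower. Without placebo M replicate 4 the MPA median of these genes was -0.36 with 11 of 12 lower. Their levels summed on the linear scale ran from 539 to 820 in placebo M, 412 to 653 with MPA, 153 to 414 in placebo N and 122 to 214 with NET-A, with placebo N replicate 4 at 414. Such sums weigh genes by probe brightness, so the macrophage sum follows mainly Lyz2 (mean level 9.17 in placebo M). The neutrophil and platelet sums below likewise follow mainly S100a9 and Pf4. In bulk tissue, fewer cells of a type and less RNA per cell cannot be told apart. Neutrophil genes went the other way, with 5 of 5 kept genes higher with MPA (median 2.21) and 7 of 9 with NET-A (0.87), and 3 of 10 were well above background on all arrays and 1 on none. With normexp the NET-A median of these genes was 0.0055 with 4 of 9 lower. Their summed level was 5.43 to 20.7 in placebo M, 35.6 to 123 with MPA, 3.51 to 5.88 in placebo N and 6.39 to 18.9 with NET-A. Platelet genes were higher in 8 of 8 in both experiments, with medians of 0.66 and 1.98 and summed levels of 43.1 to 61.1, 43.9 to 87.7, 5.84 to 13.2 and 10.8 to 25.6 in the same order of groups. Within slide 1 the MPA median of the platelet genes was 0.28 with 4 of 8 lower, and without placebo M replicate 4 there were 2 of 8 lower. With normexp their NET-A median was 0.74 with 0 of 8 lower. T cell genes were lower in 5 of 8 with MPA (median -0.063) and 10 of 10 with NET-A (-0.15), with summed levels of 5.65 to 11.8, 4.51 to 19.7, 2.11 to 4.82 and 1.71 to 3.89.

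Further lists also leaned to one side, and their part was likewise not tested. Dendritic cell genes were lower in 3 of 3 with NET-A (median -0.34), with summed levels of 2.9 to 7.17 in placebo N and 1.73 to 2.98 with NET-A, and in 1 of 2 with MPA (3.09 to 8.02 in placebo M, 3.28 to 5.35 with MPA). Mast cell and eosinophil genes were lower in 5 of 5 with MPA (median -0.61, summed levels 4.72 to 8.81 in placebo M and 2.47 to 6.16 with MPA) and in 5 of 7 with NET-A (-0.061, 3.45 to 5.04 and 1.59 to 10.1). Erythroid genes were higher in 6 of 6 with MPA (median 0.84) and 5 of 6 with NET-A (1.37). Skeletal muscle genes were lower in 5 of 5 with MPA (median -2.26), where 1 placebo M array summed to 63.8 against 6.07 for the lowest, and higher in 7 of 7 with NET-A (1.15). B cell genes were higher in 5 of 6 with MPA (median 0.49) and lower in 8 of 9 with NET-A (-0.29). Lymph node and lymphatic genes were lower in 2 of 3 (-0.13) and 4 of 6 (-0.19). Endothelial genes were higher in 7 of 8 in both experiments (0.18 and 0.19). Fibroblast genes were lower in 5 of 6 with MPA (-0.33) and 3 of 6 with NET-A (-0.11).

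**Figure D2:**
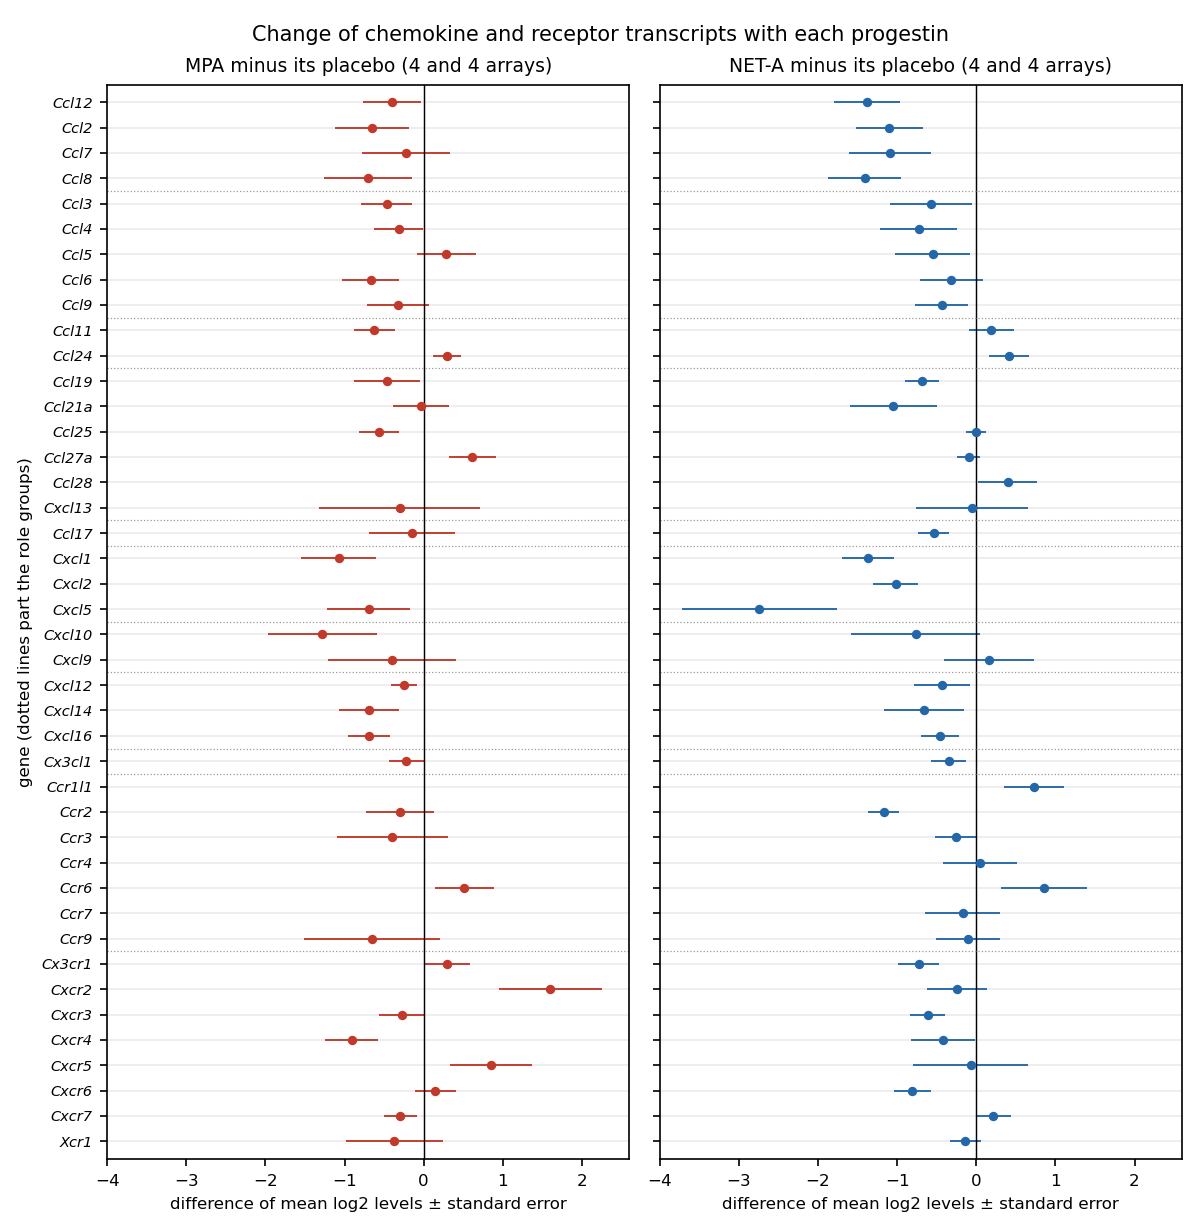
Change of kept members with MPA (left) and NET-A (right), as the difference of mean log2 levels from the own placebo group, with bars for the standard error (4 arrays a group, 3 placebo M arrays for Ccr9 and 3 MPA arrays for Xcr1). Most points lie left of 0 in both panels, and Cxcl5 with NET-A lies farthest to the left.

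Ccl2, Ccl7, Ccl8 and Ccl12 were listed here together as monocyte chemoattractants and Ccr2 ligands, and whether each binds mouse Ccr2 was not examined. All 4 had lower means in both experiments, with medians of -0.52 for MPA and -1.24 for NET-A. Without placebo M replicate 4 the MPA median was -0.040 with 3 of 4 lower, and without placebo N replicate 4 the NET-A median was -0.85 with 4 of 4 lower. Within slide 1 the MPA median was 0.13 with 1 of 4 lower, and within slide 2 it was -1.14 with 4 of 4 lower. Ccl2, the main monocyte attractant (probe at chromosome 11, 81850650 to 81850709, mm9), read 2.23, 2.01, 2.27 and 4.05 on placebo M arrays 1 to 4 and 1.49, 2.29, 2.67 and 1.51 on MPA arrays 1 to 4. Placebo M replicate 4 stood far above the others at 4.05, and the other 3 placebo arrays lay within the range of the MPA arrays. The change was -0.65 ± 0.47 (adjusted p = 0.863), and -0.18 without that array. Ccl2 read 0.85, 1.18, 0.57 and 2.45 in placebo N and 0.53, -0.46, 0.018 and 0.55 with NET-A. The highest NET-A array lay just below the lowest placebo array, and the change was -1.1 ± 0.42 (adjusted p = 0.757), a ratio of 0.467, or -0.71 without placebo N replicate 4.

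Ccl8, a monocyte attractant made by macrophages (probe at chromosome 11, 81930108 to 81930167), read 2.19, 1.76, 1.79 and 3.61 in placebo N and 0.85, 0.82, 0.29 and 1.72 with NET-A. The groups were separated narrowly, with NET-A replicate 4 at 1.72 against a lowest placebo value of 1.76, and the change was -1.41 ± 0.46 (adjusted p = 0.661). On the other slides it read 2.18, 2.71, 2.57 and 5.0 in placebo M and 3.0, 2.21, 2.24 and 2.23 with MPA, where placebo M replicate 4 stood far above the others, and the change was -0.7 ± 0.56. Ccl12, a mouse gene closely related to Ccl2 (probe at chromosome 11, 81916710 to 81916769), read 0.17, -0.86, -0.94 and 0.71 in placebo N and -1.93, -2.05, -1.57 and -0.9 with NET-A. NET-A replicate 4 lay just above placebo N replicate 3 and the other NET-A arrays below all placebo arrays, and the change was -1.38 ± 0.42 (adjusted p = 0.625). With MPA it read 0.12, -0.18, -0.12 and -0.33 against -0.45, 0.17, -0.076 and 1.44 in placebo M, a change of -0.4 ± 0.36. For Ccl7, a ligand of several receptors, the changes were -0.22 ± 0.56 (MPA) and -1.09 ± 0.52 (NET-A), and its other probe gave -0.52 and -1.22.

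These ligands varied together from array to array. After removing group means, Ccl2 and Ccl7 correlated by 0.94 over the 16 arrays, Ccl8 and Ccl12 by 0.89, Ccl7 and Ccl12 by 0.84 and Ccl2 and Ccl8 by 0.74. These are descriptions over arrays that share slides. The 4 genes also neighbour each other on chromosome 11, where the probes lie in the order Ccl2, Ccl7, Ccl11, Ccl12 and Ccl8 between 81850650 and 81930167 (mm9). The eotaxin gene Ccl11 in the middle of this row gave 0.19 ± 0.29 with NET-A, while its 4 neighbours gave -1.09 to -1.41. With MPA it gave -0.62 ± 0.26 against -0.22 to -0.70 for the neighbours. Whether Ccl11 differs from its neighbours was not tested.

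Promoter sequence from RefSeq (GRCm38.p6) was at hand for 41 of the 55 members, as windows of 250 bases before to 50 bases after the start of the gene. Ccl8 and Ccl12 are printed here because they varied together and share a TATA box at almost the same place, 32 and 31 bases before the start. Each line gives the 250 bases before the start on the plus strand, 5′ to 3′, with the motif TATAAA in capitals. The Ccl8 window is chr11:82114935-82115184 and the Ccl12 window chr11:82101595-82101844.
Ccl8: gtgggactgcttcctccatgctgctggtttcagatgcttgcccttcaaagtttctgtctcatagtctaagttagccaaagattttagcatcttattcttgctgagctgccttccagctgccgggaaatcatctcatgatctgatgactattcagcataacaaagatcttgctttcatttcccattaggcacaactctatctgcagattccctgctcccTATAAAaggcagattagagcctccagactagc
Ccl12: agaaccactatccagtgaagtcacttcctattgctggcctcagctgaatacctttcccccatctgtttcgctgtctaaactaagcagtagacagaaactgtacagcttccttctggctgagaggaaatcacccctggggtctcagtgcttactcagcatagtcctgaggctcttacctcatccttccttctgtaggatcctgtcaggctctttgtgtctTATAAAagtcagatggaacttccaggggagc
TATAAA was found on either strand in the windows of 13 of 41 members (31.7%) and of 15.7% of all 27025 genes in the table. A match is a description of letters and shows no binding.

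The receptor Ccr2, which lets inflammatory monocytes leave the marrow and enter tissue, had the smallest p of all members under NET-A. Its probe (at chromosome 9, 124022948 to 124023007) read -1.14, -1.45, -1.51 and -0.66 in placebo N and -2.23, -2.31, -2.42 and -2.5 with NET-A. The NET-A arrays lay close together and all below the lowest placebo array. The change was -1.17 ± 0.2 (adjusted p = 0.597), a ratio of 0.444 with an unadjusted p of 0.000318, and -1.09, -0.97 and -1.32 on slides 3, 4 and 5. A second, dimmer probe of Ccr2 gave -1.03. In placebo M it read -2.28, -0.48, -2.06 and -0.58 and with MPA -1.55, -2.17, -1.52 and -1.36. Placebo M replicates 2 and 4 lay above all MPA arrays and replicate 1 below them, so that the placebo range enclosed the MPA range, and the change was -0.3 ± 0.43 (adjusted p = 0.923), or 0.20 with normexp background correction. The MPA change exceeded the NET-A change by 0.88 ± 0.50 with a 95% interval from -0.19 to 1.95.

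**Figure D3:**
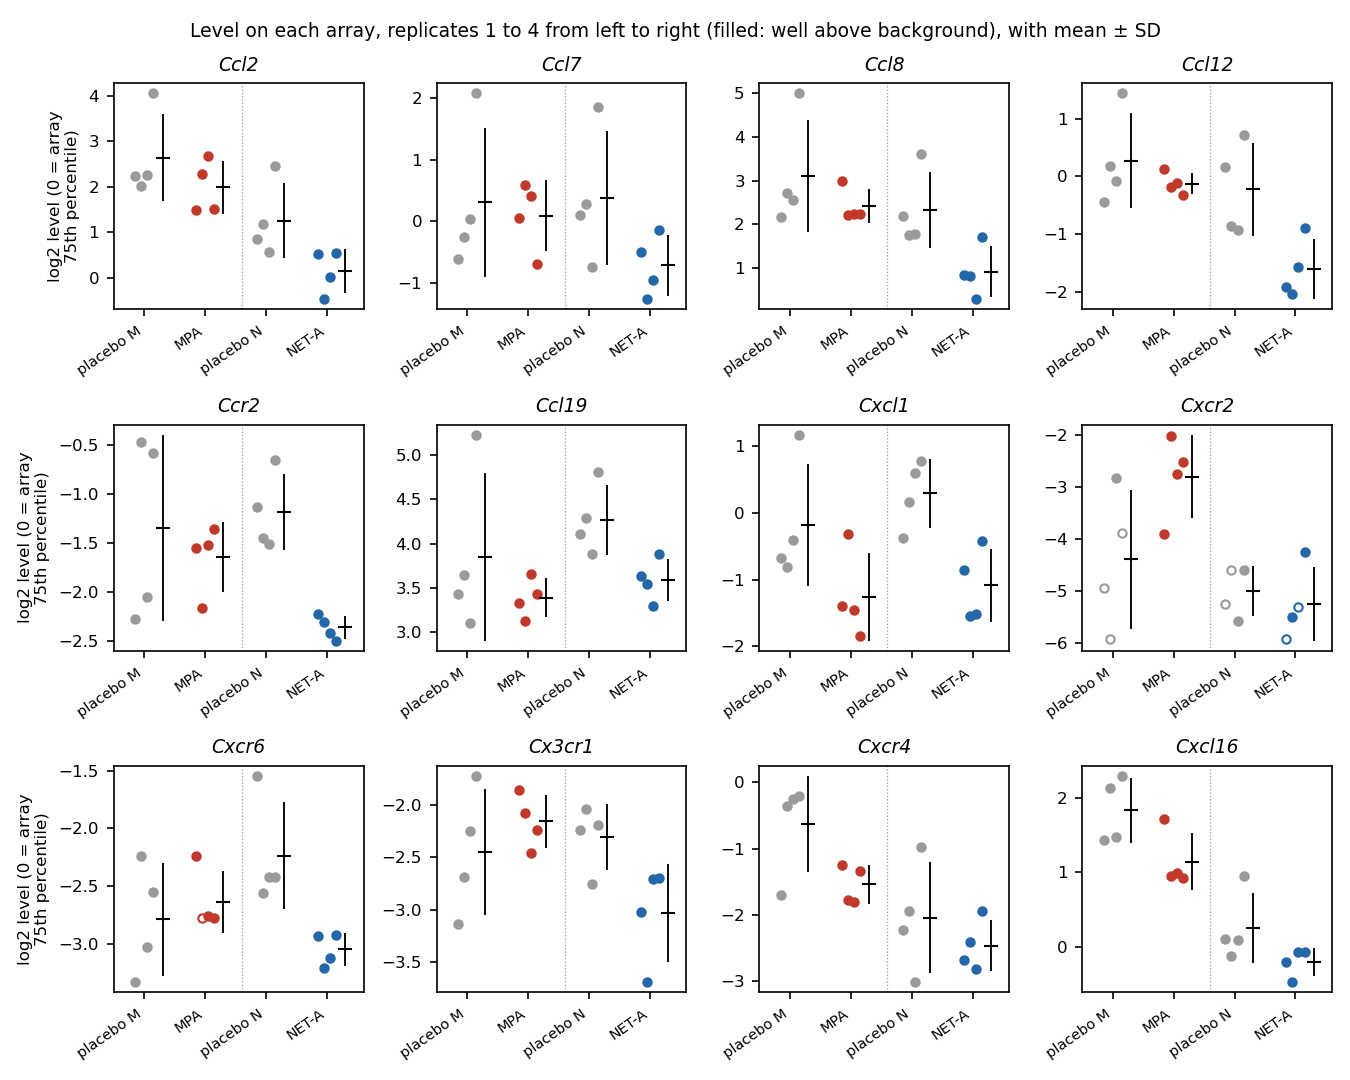
Log2 level of 12 members on each array, replicates 1 to 4 from left to right in each group, filled where well above background and open where not, with the mean and SD beside the points. The dotted line parts the MPA experiment from the NET-A experiment. For Ccr2 and Cxcr6 the 4 NET-A arrays lie below the 4 placebo N arrays, and for Ccl2, Ccl7 and Ccl8 placebo M replicate 4 lies far above its group.

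The macrophage inflammatory ligands and their relatives gave smaller values. Of Ccl3, Ccl4, Ccl5, Ccl6 and Ccl9, 4 were lower with MPA (median -0.32) and 5 with NET-A (median -0.55), and 0 had an unadjusted p under 0.05 in either experiment. Ccl5, made by T cells and platelets (probe at chromosome 11, 83339296 to 83339355), read 1.1, 1.39, 2.29 and 2.65 in placebo M and 2.34, 2.49, 1.47 and 2.28 with MPA. It was higher with MPA on slide 1 (1.17) and lower on slide 2 (-0.59), and the change over both was 0.29 ± 0.37 (adjusted p = 0.916). In placebo N it read 2.12, 1.54, 0.84 and 1.26 and with NET-A 0.29, 0, 1.16 and 2.11, with overlapping groups and a change of -0.55 ± 0.48 (adjusted p = 0.949). Ccl6, a macrophage chemokine of mice (probe at chromosome 11, 83401997 to 83402056), read 5.53, 6.43, 6.32 and 7.46 in placebo M and 5.76, 5.84, 6.0 and 5.45 with MPA. The MPA arrays reached down to placebo M replicate 1 and lay below the other placebo arrays, and the change was -0.67 ± 0.36 (adjusted p = 0.848). With NET-A it was -0.32 ± 0.4.

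Of the related inflammatory proteins, Ccl9, which varied with its neighbour Ccl6 (correlation 0.93 over 16 arrays), gave -0.32 ± 0.39 with MPA and -0.43 ± 0.33 with NET-A. Ccl3 gave -0.47 ± 0.32 and -0.57 ± 0.52, and Ccl4 gave -0.31 ± 0.31 and -0.73 ± 0.48. Without placebo M replicate 4 the median of these 5 ligands with MPA was 0.011, and without placebo N replicate 4 it was -0.14 with NET-A.

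Both eotaxins were measured, and they are ligands of the eosinophil receptor Ccr3. Ccl11 (probe at chromosome 11, 81876072 to 81876131) read 1.29, 1.56, 0.82 and 1.27 in placebo M and 1.19, 0.19, 0.22 and 0.84 with MPA. MPA replicates 2 and 3 lay below every placebo array and replicates 1 and 4 within their range, and the change was -0.62 ± 0.26 (adjusted p = 0.795). In placebo N it read 0.042, -0.097, -0.6 and 0.4 and with NET-A -0.15, 0.81, -0.24 and 0.1, which overlapped, with a change of 0.19 ± 0.29 (adjusted p = 0.991). Ccl24 was among the few members with higher means in both experiments, at 0.29 ± 0.18 and 0.41 ± 0.25. Ccr3 (probe at chromosome 9, 123945225 to 123945284) was well above background on 4 arrays of the MPA experiment and 7 of the NET-A experiment. It read -3.57, -4.64, -2.23 and -2.52 in placebo M, -5.04, -2.05, -4.2 and -3.26 with MPA, -3.9, -2.83, -3.58 and -3.28 in placebo N and -4.03, -3.84, -3.17 and -3.59 with NET-A. No order of groups was visible, and the changes were -0.4 ± 0.7 (adjusted p = 0.941) for MPA and -0.26 ± 0.27 (adjusted p = 0.964) for NET-A.

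Among the ligands that organise lymphoid tissue, Ccl19 and Ccl21a draw T cells and dendritic cells through Ccr7. Both have near-identical copies in the mouse genome, so that their signal cannot be assigned to one copy. Ccl19 (probe at chromosome 4, 42250432 to 42250491) read 4.11, 4.29, 3.88 and 4.81 in placebo N and 3.63, 3.54, 3.3 and 3.88 with NET-A. The lowest placebo array and NET-A replicate 4 both printed as 3.88, with the placebo value above at full precision, and the change was -0.69 ± 0.22 (adjusted p = 0.656). With MPA the change was -0.47 ± 0.41, from 3.43, 3.65, 3.1 and 5.23 in placebo M and 3.33, 3.13, 3.66 and 3.43 with MPA, where placebo M replicate 4 stood alone above 4. Its second probe gave -0.41 with MPA and -0.67 with NET-A.

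Ccl21a (probe at chromosome 4, 42231835 to 42231894) read 0.33, 0.61, 0.68 and 2.0 in placebo M, 0.81, 0.65, 1.38 and 0.62 with MPA, 1.71, 1.31, 1.59 and 2.88 in placebo N and -0.6, 1.65, 1.62 and 0.64 with NET-A. NET-A replicate 1 was lowest and replicates 2 and 3 lay among the placebo arrays. The changes were -0.034 ± 0.36 (adjusted p = 0.994) with MPA and -1.05 ± 0.55 (adjusted p = 0.851) with NET-A. Ccr7 was undetected on all 8 arrays of placebo M and MPA. It read -3.34, -2.64, -4.42 and -2.76 in placebo N and -3.9, -4.16, -3.25 and -2.53 with NET-A, detected on all but NET-A replicate 1, and the change was -0.17 ± 0.48 (adjusted p = 0.998).

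Ccl25, a ligand of Ccr9 known from thymus and gut (probe at chromosome 8, 4359916 to 4359975), read 0.85, 1.1, 0.023 and 0.91 in placebo M and 0.49, 0.13, 0.17 and -0.18 with MPA. Placebo M replicate 3 lay among the MPA arrays and the other placebo arrays above them, and the change was -0.57 ± 0.25 (adjusted p = 0.804). Its second probe, not detected in that experiment, gave 0.63. With NET-A the change of Ccl25 was -0.0014 ± 0.13, the smallest of the 43 kept members. Ccl27a, a keratinocyte ligand of Ccr10 with near-identical copies (probe at chromosome 4, 41716763 to 41716822), read 0.48, -0.69, 0.49 and 0.66 in placebo M and 0.55, 0.75, 1.09 and 1.0 with MPA. Placebo M replicate 2 stood well below the others, and the change was 0.61 ± 0.3 (adjusted p = 0.827), or 0.31 without that array. With NET-A it was -0.096 ± 0.14. Cxcl13, the B cell attractant, ranged from -5.84 to -1.07 within placebo M and gave -0.3 ± 1.02 and -0.054 ± 0.71, while Ccl28 gave 0.4 ± 0.37 with NET-A. Ccl17, a ligand of Ccr4 from dendritic cells, gave -0.14 ± 0.54 with MPA and -0.54 ± 0.19 with NET-A (unadjusted p = 0.0221, adjusted p = 0.715).

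The neutrophil-attracting CXC ligands act on Cxcr2, and those kept had lower means, at 2 of 2 with MPA (median -0.88) and 3 of 3 with NET-A (median -1.37). For NET-A, Cxcl5 was kept through 3 placebo arrays and 1 NET-A array and Cxcl2 through 3 and 2. That route favours lower values. The MPA median was -0.39 without placebo M replicate 4, -0.33 with normexp, and 0.084 with 1 of 2 lower within slide 1. Cxcl1 (probe at chromosome 5, 91321845 to 91321904) read -0.37, 0.15, 0.59 and 0.77 in placebo N and -0.86, -1.54, -1.52 and -0.43 with NET-A. The groups met closely at NET-A replicate 4 and placebo N replicate 1 but did not overlap, and the change was -1.37 ± 0.33 (adjusted p = 0.6), a ratio of 0.387. In placebo M it read -0.68, -0.81, -0.41 and 1.16 and with MPA -1.39, -0.32, -1.46 and -1.85. MPA replicate 2 lay above 3 placebo arrays, and the change was -1.07 ± 0.47 (adjusted p = 0.799), or -0.11 within slide 1 and -2.03 within slide 2.

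Cxcl2 (probe at chromosome 5, 91334534 to 91334593) was not detected on any array of the MPA experiment. It read -4.37, -4.6, -5.29 and -4.68 in placebo N, where replicate 2 was not well above background, and -6.02, -6.01, -5.97 and -5.02 with NET-A, where replicates 2 and 4 were. NET-A replicate 4 alone lay within the range of placebo, and the change was -1.02 ± 0.29 (adjusted p = 0.625). Cxcl5, made by epithelial cells and platelets, read -5.08, -3.18, -5.69 and -2.47 in placebo N and -5.93, -8.69, -7.77 and -5.0 with NET-A. It was well above background on 3 placebo arrays and 1 NET-A array, the arrays spread widely within each group, and the change was -2.74 ± 0.97 (adjusted p = 0.716). Since 3 of the 4 NET-A values are background readings, the size of this change is not a measured one. With MPA it gave -0.69 ± 0.52, with placebo M replicate 4 at 0.21 and the other placebo arrays at -2.18 to -1.56.

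The promoters of Cxcl1, Cxcl2 and Cxcl3, the last of which was not detected on any array, are printed because all 3 hold the same letters of the kappa B consensus, a motif that inflammatory transcription factors bind in chemokine genes. Each line gives the 250 bases before the start, 5′ to 3′, from chr5:90890995-90891244 for Cxcl1, chr5:90903649-90903898 for Cxcl2 and chr5:90785851-90786100 for Cxcl3 (GRCm38.p6, plus strand). Capitals mark the kappa B consensus and, in Cxcl3, TATAAA.
Cxcl1: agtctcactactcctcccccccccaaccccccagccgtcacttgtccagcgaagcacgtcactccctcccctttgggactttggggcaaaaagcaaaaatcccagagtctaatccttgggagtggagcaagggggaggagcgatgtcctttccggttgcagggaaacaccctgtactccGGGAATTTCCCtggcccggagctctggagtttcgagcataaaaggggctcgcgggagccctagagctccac
Cxcl2: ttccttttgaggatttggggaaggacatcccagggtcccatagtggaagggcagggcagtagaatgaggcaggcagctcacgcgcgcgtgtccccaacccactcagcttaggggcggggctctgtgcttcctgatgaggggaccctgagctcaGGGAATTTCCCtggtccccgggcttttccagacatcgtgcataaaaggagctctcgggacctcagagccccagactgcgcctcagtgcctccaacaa
Cxcl3: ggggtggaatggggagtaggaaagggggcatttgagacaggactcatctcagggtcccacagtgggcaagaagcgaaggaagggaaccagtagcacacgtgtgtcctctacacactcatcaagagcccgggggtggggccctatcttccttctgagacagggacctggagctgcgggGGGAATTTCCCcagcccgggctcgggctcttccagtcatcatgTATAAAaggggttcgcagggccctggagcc
The consensus, searched on both strands, where the overlapping matches of these genes read as 1 stretch, stood in the windows of 9 of 41 members (22.0%) and of 5.14% of all genes in the table. The members with it were Cxcl1, Cxcl2, Cxcl3, Cxcl10, Ccl9, Ccl20, Ccl27a, Ccr3 and Ccr6. The 6 of these kept with MPA had a median change of -0.36, against -0.34 for the 22 kept members whose window lacks it, and with NET-A the medians were -0.43 over 7 and -0.42 over 25. The letters TGTTCT, part of the element that binds the progesterone, androgen and glucocorticoid receptors, stood in 8 of 41 members (19.5%) and 21.3% of all genes.

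Cxcr2, the neutrophil receptor for these ligands (probe at chromosome 1, 74206886 to 74206945), was better detected with MPA than in its placebo group. It read -4.95, -5.93, -2.83 and -3.89 in placebo M, well above background on replicate 3 alone, and -3.92, -2.02, -2.76 and -2.52 with MPA, well above background on all 4 arrays. MPA replicate 1 lay below placebo M replicates 3 and 4, and the change was 1.6 ± 0.65 (adjusted p = 0.792), or 2.47 within slide 1 and 0.72 within slide 2. Cxcr2 entered this comparison through the MPA arrays, and 3 of the 4 placebo values are background readings, so the size of the change is not a measured one. Its second probe gave 1.37. The neutrophil markers of the same arrays stood higher too, with a median of 2.21, and their part in this value was not tested. In placebo N it read -5.25, -4.6, -5.58 and -4.6 and with NET-A -5.93, -5.5, -5.32 and -4.26, detected on 2 arrays of each group, with a change of -0.24 ± 0.38 (adjusted p = 0.992).

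Of the interferon-induced ligands, Cxcl10 (probe at chromosome 5, 92775781 to 92775840) read -1.21, -0.14, -1.49 and 1.66 in placebo M and -0.45, -1.33, -2.24 and -2.29 with MPA. Placebo M replicate 4 was the highest, the ranges overlapped, and the change was -1.28 ± 0.69 (adjusted p = 0.848), with -0.22 within slide 1, -2.34 within slide 2 and -0.63 without that array. In placebo N it read 0.97, -2.73, -2.52 and -0.4 and with NET-A -2.36, -2.22, -2.22 and -0.93. Placebo N replicate 1 stood alone at the top, and the change was -0.77 ± 0.81 (adjusted p = 0.966), or -0.052 without it. Cxcl9 gave -0.4 ± 0.81 with MPA and 0.16 ± 0.56 with NET-A. Their receptor Cxcr3 (probe at chromosome X, 98926920 to 98926979) read -2.23, -2.47, -2.64 and -2.07 in placebo N and -3.24, -3.36, -2.61 and -2.64 with NET-A, with NET-A replicates 1 and 2 below every placebo array. Its change was -0.61 ± 0.22 (adjusted p = 0.724). With MPA it was -0.27 ± 0.29 (adjusted p = 0.904), from -2.83, -1.96, -2.09 and -1.37 in placebo M and -1.97, -2.55, -2.54 and -2.28 with MPA.

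Cxcl12 and Cxcr4 had lower means in both experiments. Cxcl12 (probe at chromosome 6, 117131227 to 117131286) read 3.2, 3.09, 3.04 and 3.62 in placebo M, 2.89, 2.97, 3.0 and 3.11 with MPA, 2.58, 2.88, 2.42 and 3.2 in placebo N and 2.36, 3.3, 1.56 and 2.13 with NET-A. MPA replicates 1, 2 and 3 lay below every placebo M array and replicate 4 within the placebo range. The changes were -0.25 ± 0.16 (adjusted p = 0.855) for MPA and -0.43 ± 0.36 (adjusted p = 0.943) for NET-A. A second Cxcl12 probe, well above background on all arrays, gave -0.565 with MPA and -0.409 with NET-A. The NET-A value of Cxcl12 was -0.17 without NET-A replicate 3 and -0.76 without NET-A replicate 2. Cxcr4 (probe at chromosome 1, 130485079 to 130485138), the member with the smallest p for MPA, read -1.7, -0.35, -0.25 and -0.2 in placebo M and -1.25, -1.78, -1.8 and -1.33 with MPA. The 3 higher placebo arrays lay above every MPA array, while placebo M replicate 1 lay among the MPA arrays. The change was -0.91 ± 0.34 (adjusted p = 0.768), a ratio of 0.533, and it was -0.43 with normexp, -0.48 within slide 1 and -0.57 by a second probe detected on 4 of the 8 arrays. In placebo N it read -2.23, -1.94, -3.01 and -0.98 and with NET-A -2.68, -2.4, -2.82 and -1.94, with overlap and a change of -0.42 ± 0.41 (adjusted p = 0.958), or -0.062 without placebo N replicate 4 and -0.74 without replicate 3. The scavenging receptor Cxcr7, now named Ackr3, gave -0.3 ± 0.21 with MPA and 0.22 ± 0.22 with NET-A.

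Cxcl16 is a membrane-anchored ligand that also binds oxidized lipoprotein, and Cxcr6 is its receptor on T cells and natural killer T cells. Cxcl16 (probe at chromosome 11, 70267780 to 70267839) read 1.44, 2.13, 1.48 and 2.29 in placebo M and 1.71, 0.95, 0.99 and 0.92 with MPA. MPA replicate 1 lay among the placebo arrays and the other 3 below them, and the change was -0.69 ± 0.27 (adjusted p = 0.768), with -0.45 within slide 1 and -0.92 within slide 2. Its second probe gave -0.41. In placebo N it read 0.1, -0.12, 0.088 and 0.94 and with NET-A -0.2, -0.47, -0.067 and -0.069, a change of -0.46 ± 0.24 (adjusted p = 0.849).

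Cxcr6 (probe at chromosome 9, 123720605 to 123720664) read -1.55, -2.56, -2.42 and -2.42 in placebo N and -2.93, -3.21, -3.12 and -2.92 with NET-A. All NET-A arrays lay below all placebo arrays, of which replicate 1 stood above the rest. The change was -0.81 ± 0.23 (adjusted p = 0.625), a ratio of 0.572, and -0.58 without that array. In placebo M it read -3.33, -2.24, -3.03 and -2.55 and with MPA -2.24, -2.78, -2.76 and -2.78, with overlap and a change of 0.15 ± 0.26 (adjusted p = 0.94).

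Fractalkine, Cx3cl1, is presented on activated endothelium, and Cx3cr1 is its receptor on patrolling monocytes. Cx3cl1 (probe at chromosome 8, 97306185 to 97306244) read 2.46, 2.89, 2.35 and 3.15 in placebo M, 2.35, 2.62, 2.78 and 2.23 with MPA, 2.46, 2.36, 2.42 and 2.84 in placebo N and 2.45, 1.58, 2.46 and 2.22 with NET-A. The groups overlapped in both experiments, and the changes were -0.22 ± 0.22 (adjusted p = 0.899) with MPA and -0.35 ± 0.22 (adjusted p = 0.897) with NET-A. Cx3cr1 (probe at chromosome 9, 119959018 to 119959077) read -2.24, -2.04, -2.76 and -2.19 in placebo N and -3.02, -3.69, -2.71 and -2.7 with NET-A. Only placebo N replicate 3 reached down to the NET-A arrays, and the change was -0.72 ± 0.26 (adjusted p = 0.716). It was -0.78, -0.67 and -0.72 on slides 3, 4 and 5, and the second, dimmer probe gave -0.77. In placebo M it read -3.14, -2.69, -2.25 and -1.73 and with MPA -1.86, -2.08, -2.46 and -2.24, a change of 0.29 ± 0.29 (adjusted p = 0.898) that was 0.94 within slide 1 and -0.36 within slide 2. The second probe, detected on 2 of the 8 arrays, gave -0.25 with MPA.

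The other members gave values within their spread. Cxcl14, a ligand of stromal cells, gave -0.69 ± 0.38 with MPA and -0.67 ± 0.51 with NET-A. Ccr6, the receptor of Ccl20 on B cells and some T cells, gave 0.51 ± 0.37 and 0.86 ± 0.54, and the B cell receptor Cxcr5 gave 0.85 ± 0.52 and -0.067 ± 0.73. Xcr1, a dendritic cell receptor, gave -0.37 ± 0.61 over 3 MPA arrays and -0.14 ± 0.2. Ccr9 gave -0.65 ± 0.86 over 3 placebo M arrays and -0.11 ± 0.4. With NET-A, Ccr4 gave 0.047 ± 0.47 and the Ccr1 relative Ccr1l1 0.73 ± 0.38.

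A separate fit over all 16 arrays set the change with MPA against the change with NET-A. With doses unknown and separate slides it compares these experiments, not the compounds at matched doses. By limma 0 of 15089 genes passed after adjustment (0%, smallest adjusted p 0.194), and 1022 had an unadjusted p under 0.05 (6.77%). Among members 3 of 38 did (7.89%), close to that background, and all 3 were receptors. Cxcr6 gave 0.95 ± 0.35 (adjusted p = 0.603), Cx3cr1 1.02 ± 0.40 (adjusted p = 0.655) and Cxcr2 1.84 ± 0.80 (adjusted p = 0.712), positive where the value with MPA was the higher one. The value of Cxcr2 rests largely on undetected arrays, and that of Cx3cr1 on an MPA change whose sign differs between probes. The 95% intervals of the difference had a median half-width of 1.28 over the members. For Ccl2 the difference was 0.46 with an interval from -0.96 to 1.87.

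**Figure D4:**
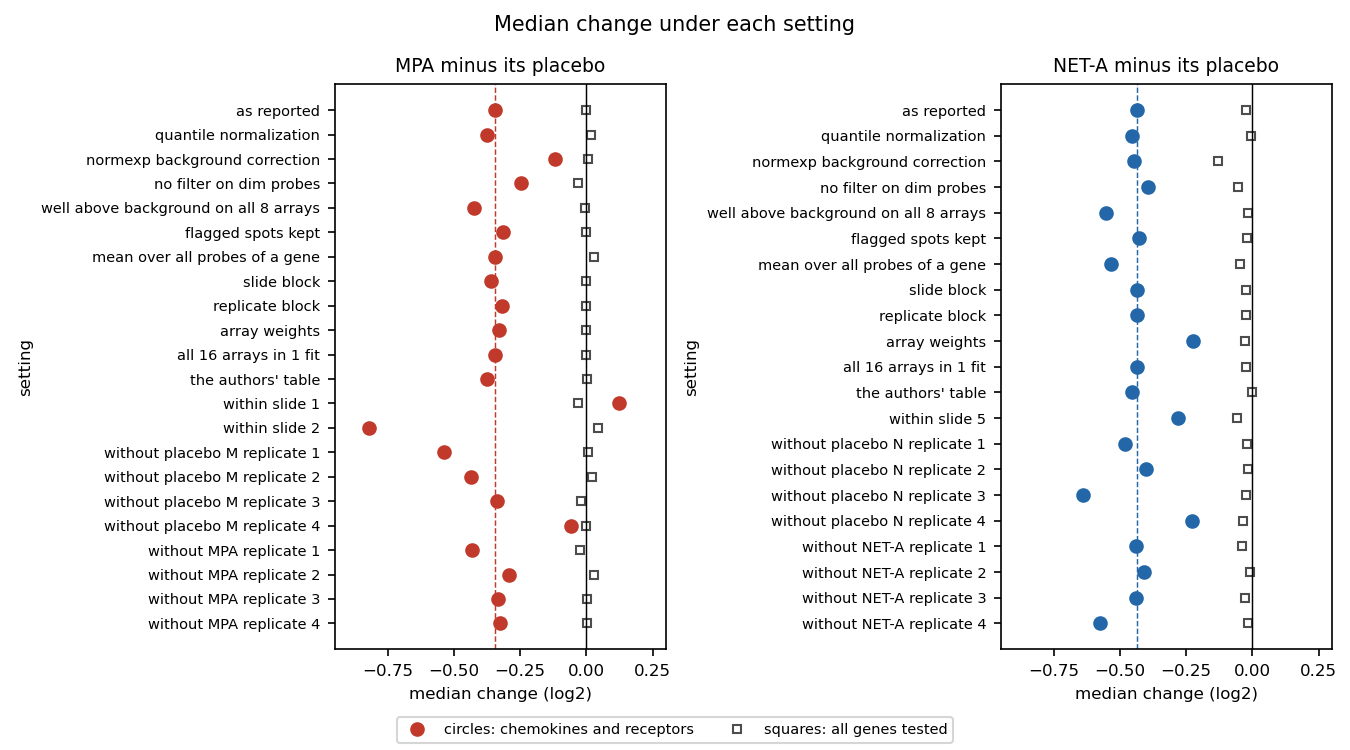
Median change of the kept members (circles) and of all genes tested (squares) for MPA (left) and NET-A (right) under each way of processing or leaving out arrays, on the log2 scale. The dashed line marks the reported median of -0.35 for MPA and -0.43 for NET-A. With MPA the members' median is positive within slide 1 and near 0 without placebo M replicate 4, while with NET-A it is negative in each of the settings shown.

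Genes that work with chemokines were read from lists that held no member. The atypical receptors and relatives, which bind chemokines without classical signalling or bind related ligands, had 3 of 6 lower with MPA (median -0.052) and 0 of 6 with NET-A (0.25). Of these the scavenger Ccrl1, now Ackr4, gave -0.41 ± 0.35 with MPA and 0.81 ± 0.41 with NET-A. The platelet chemokines were higher in both experiments, Ppbp by 0.93 ± 0.29 and 2.24 ± 0.54 and Pf4 by 0.19 ± 0.24 and 0.70 ± 0.30. They thus stood on the opposite side of 0 from most members. Both genes are also in the platelet marker list, so that list is not a separate comparison for them. Receptor signalling genes were lower in 19 of 24 with MPA (median -0.13) and 15 of 26 with NET-A (-0.10). Among them Rgs1, a brake on G protein signalling, gave -0.77 ± 0.26 with MPA and Pik3cg, a leukocyte lipid kinase, -1.10 ± 0.43 with NET-A. Rgs18 was the highest of this list in both experiments, at 0.40 ± 0.30 and 0.92 ± 0.43.

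Of the cytokines and transcription factors known to induce chemokines, 7 of 12 were lower with MPA (median -0.070) and 8 of 15 with NET-A (-0.0043). The cytokine Il6 gave -3.08 ± 0.88 with MPA and -1.47 ± 0.53 with NET-A (adjusted p = 0.742 and 0.723), Atf3 -0.95 ± 0.18 and 0.51 ± 0.69, and the kappa B inhibitor Nfkbia -0.45 ± 0.25 and 0.23 ± 0.16. Il1b gave 1.04 ± 0.61 and -0.37 ± 0.40. Genes that present or cut chemokines were lower in 12 of 16 with MPA (median -0.14) and 9 of 17 with NET-A (-0.10). The elastase Mmp12, also in the macrophage list, was lowest with -0.95 ± 0.28 and -0.78 ± 0.43. The highest were Adam10 with MPA (0.24 ± 0.31) and Mmp9 with NET-A (1.13 ± 0.27). In each of these 5 lists 0 genes passed after adjustment by limma.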

How the data were processed

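Total RNA was labelled with Cy3 and hybridised to 1-colour Agilent arrays of 60-base probes, 16 arrays in 4 groups on 5 slides. The deposited intensity values are background-corrected spot signals written by Agilent Feature Extraction, version 10.7.1.1 (MPA experiment) and 11.0.1.1 (NET-A experiment), per the file headers. The authors' deposited table of processed log2 values served as an alternative; its scale, centring and direction are not stated and were inferred from a correlation of 0.929 to 0.993 with each array (column medians -0.0269 to 0.0157).

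Of 45018 spots, 43379 were no controls, and 3572 outlier-flagged values (0.515%) were left out; 0 of the kept spots were saturated. Signals were divided by the 75th percentile of the array and taken as log2, spots of a probe were averaged, and the brightest probe of a gene was used. Probe positions are those in the files (mm9), and exon or UTR annotation was not used here. A gene entered a comparison if well above background on at least 4 of its 8 arrays. Each progestin was compared with its placebo by limma 3.58.1 (R 4.3.3), two-sided, with Benjamini-Hochberg adjustment over all genes, and the difference of the 2 responses over 16 arrays. The steps were tested on simulated data. The number of arrays limits the precision: the median half-width of a member's 95% interval was 0.844 (MPA) and 0.866 (NET-A).

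Members and gene lists were chosen with earlier results of these data known. Given in full were the 8 members with the smallest unadjusted p in each comparison and a set of ligand and receptor pairs; the other kept members are given by their change. The result for 1 member, which the counts include, is not reported here. Same-numbered samples did not vary together (correlations of -0.246 to 0.241 for MPA and -0.332 to 0.327 for NET-A), so the numbers were not used as pairs. In the NET-A experiment, treated and placebo arrays of the same slide correlated by 0.142 to 0.466, and those of different slides by -0.351 to 0.133. In the MPA experiment same-slide values ran from -0.246 to 0.267. The reported fits hold no slide term, and a slide block was run as an alternative. Alternatives were quantile normalization, normexp, other filters, flagged spots, all probes, slide or replicate block, array weights, 1 fit of all arrays, the authors' table, single slides and each array left out.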

Additional observations from a re-analysis of the deposited data

Results flagged for a closer look

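In 8 of the 84 groups of 4 arrays tested, 1 array stood apart from the rest of its group by Dixon's criterion, which chance alone meets in about 1 of 20 groups. Placebo M replicate 4 was the highest of its group for Ccl2, at 4.05 against 2.01 to 2.27. Placebo M replicate 1 was the lowest for Cxcr4, at -1.7 against -0.35 to -0.20, and placebo M replicate 2 the lowest for Ccl27a, at -0.69 against 0.48 to 0.66. MPA replicate 1 was the highest for Cxcl16, at 1.71 against 0.92 to 0.99, and for Cxcr6, at -2.24 against -2.78 to -2.76. Placebo N replicate 1 was the highest for Cxcr6, at -1.55 against -2.56 to -2.42. NET-A replicate 4 was the highest for Cxcl2, at -5.02 against -6.02 to -5.97, and for Cxcl10, at -0.93 against -2.36 to -2.22.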

How the results depend on the processing

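No member passed after adjustment under any alternative run. Direction was followed for the members with the smallest unadjusted p in each comparison, the ligand and receptor pairs, and 3 differences of the 2 responses. Of these values 807 kept their direction and 26 turned. The other kept members are not in this count, and more of them turned. For MPA, the number of members lower at an unadjusted p under 0.05 was 4 as reported, 2 with no filter on dim probes, 7 with array weights, 0 within slide 1, 8 within slide 2 and 0 to 6 when each array was left out. In either direction, 5 of 38 members and 947 of 15219 genes were at that level as reported. With no filter it was 3 of 55 members and 1028 of 28091 genes, and with array weights 9 of 38 and 1413 of 15219. Within slide 1 it was 4 of 38 members and 688 of 15057 genes, and within slide 2 it was 8 of 38 and 1205 of 15204. With each array left out the genes ran from 669 to 1299. The median of the members was 0.12 within slide 1, with 44.7% lower, and -0.82 within slide 2, each slide holding 2 arrays a group. For NET-A, 13 lower members as reported became 8 with normexp, 4 within slide 5 and 10 to 15 when each array was left out. In either direction, 13 of 43 members and 1294 of 20912 genes were at that level as reported. With normexp it was 8 members and 553 genes, and within slide 5 it was 4 members and 1188 genes. With each array left out the genes ran from 985 to 1667. Among all genes, 1 passed for MPA with the slide block (S100a8, 2.69, adjusted p = 0.0347) and 1 in the fit of all 16 arrays (AK052744, -3.25, adjusted p = 0.0482). With the replicate block the members' median was -0.32 for MPA and -0.43 for NET-A, and 0 genes passed, so it changed no call. With the slide block the members' median was -0.36 for MPA and -0.43 for NET-A. At an unadjusted p under 0.05 it gave 4 lower and 2 higher members for MPA (1052 of 15208 genes in either direction). For NET-A it gave 12 lower and 2 higher members (1804 of 20912 genes), where the reported fit gave 0 higher.

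With normexp the MPA median of the members was -0.12 with 24 of 38 lower, and with array weights the NET-A median was -0.23. Of the values followed, the MPA values of Ccr2 (0.20), Ccl5 (-0.053), Cxcr3 (0.34) and Ccr3 (0.79) turned with normexp. The normexp median of all genes for NET-A was -0.13. 4227 genes had an unadjusted p under 0.05 for MPA with normexp, and 0 passed. Among the values followed, the mean over all probes turned Ccl25 for MPA (0.032) and Ccr3 for NET-A (0.057). Array weights turned, among the same values, Ccl21a for MPA (0.012), and Ccr7 (0.24) and Cxcr2 (0.22) for NET-A. Of the values followed, slide 1 turned Ccl21a (0.27), Cxcr3 (0.14) and Ccr3 (0.56), and slide 2 Cx3cr1 (-0.36) and Ccl5 (-0.59). Slide 5 turned Ccr7 (0.25), Ccl5 (0.0045) and Cxcr2 (0.21). Slide 1 also turned other members for MPA, among them Ccl7 (0.76), Ccl8 (0.15), Ccl12 (0.11), Ccl17 (0.90), Cxcl5 (0.28) and Cxcl13 (1.68). It left 17 of 38 members lower. With each array left out, the MPA values ran from -0.23 to 0.33 for Ccl21a, -0.93 to 0.069 for Ccr3 and -0.034 to 0.33 for Cxcr6. The NET-A values ran from -0.55 to 0.063 for Ccr7 and -0.035 to 0.35 for Ccl11. The cause was not tested in any of these. Signal over background limits Cxcr2, Cxcl5, Ccr3 and Ccr7, which were not well above background on several arrays.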
